A study of Mus musculus with 15 samples.

Results

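The genes described are 32 marker genes of macrophages and monocytes, the phagocytes of the myeloid lineage, in the intestine of mouse embryos. They were named by symbol and looked up by Entrez gene ID in each library's count table, among 36528 IDs in all. All 32 were found, and all 32 passed the filter on low counts that left 18370 genes for testing. Earlier results of these data were known when the list was chosen.

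RNA was extracted from small intestine at E16.5, before birth, in 3 genotypes of 5 libraries each, and every group was knocked out for Mlkl, the pseudokinase that carries out necroptosis. The groups were a Casp8 C362A knockin on the Mlkl knockout background (C362A), a Casp8 knockout on the same background (KO) and Casp8 wildtype, also Mlkl knockout (WT). Caspase-8 starts apoptosis downstream of death receptors, and C362A puts alanine in place of the catalytic cysteine that it needs to cut its substrates. The labels mark the tissue of all C362A libraries as inflamed and that of all KO and WT libraries as normal. Age was the same throughout. No strain, sex, litter, collection date or promoter of a deleter line is given in the labels used here. Whether each library came from its own embryo is not said there either, so p-values measure the spread between these libraries, which may be partly technical. Replicate numbers follow the order of the accessions in each genotype and pair nothing across genotypes.

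Macrophages enter the intestinal wall before birth, first from the yolk sac and fetal liver. They depend on the receptor for CSF1, which Csf1r encodes, and on the transcription factor PU.1, which Spi1 encodes. Once in tissue they make the complement protein C1q, take up dying cells and antibody-coated particles, with Fc receptors for the antibody, and digest their cargo in lysosomes. Fetal tissue macrophages are known for F4/80, the product of Adgre1, and monocytes for Ccr2, the receptor that brings them out of the blood. Some of the 32 genes are shared with other blood cells. Lyz2, Itgam, Cybb, Spi1 and Fcer1g are also made by neutrophils, Fcer1g by mast cells, and Ptprc, Coro1a, Lcp1, Laptm5 and Cd53 by most leukocytes.

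Libraries held 31896399 to 38532127 counts, and levels are given as CPM, the counts of a gene per 1000000 counts of its library, scaled by the TMM factors of edgeR. Casp8 was at 69.9 ± 3.41 CPM in C362A, 14.4 ± 1.65 CPM in KO and 70.1 ± 5.97 CPM in WT (SD, n = 5 each), which fits the KO label and cannot show the C362A substitution. Mlkl was under 1 CPM on average in each group, at 0.389 CPM in C362A, 0.521 CPM in KO and 0.506 CPM in WT. Libraries fall into 2 runs of consecutive sample ID numbers, run 1 with 2 libraries of each genotype and run 2 with 3 of each. What the runs stand for is not given in the labels, and values within each are printed for some of the members. C362A replicate 4 alone held the squamous keratins Krt13 at 53.1 CPM and Krt5 at 27.3 CPM, against less than 1 CPM in each of the 14 other libraries. Transcripts of Y-linked genes were present in 2 of 5 C362A, 4 of 5 KO and 4 of 5 WT libraries, so that sex and genotype are partly mixed.

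The defining markers of the lineage, among them Csf1r, Adgre1 and the C1q chains, were expressed in every library. On the RPKM scale, which divides by gene length and was adjusted by a size factor per library by the authors, Lcp1 was the highest of the 32 at 44.8 ± 7.70 (mean ± SD, n = 15 libraries). It encodes L-plastin, a protein that bundles actin in leukocytes. C1qb followed at 35.8 ± 4.36 RPKM and Lyz2, the macrophage lysozyme, at 33.4 ± 16.9 RPKM. C1qa (29.1 RPKM), C1qc (28.9 RPKM), the adaptor gene Tyrobp (28.1 RPKM), the lysosomal protease gene Ctss (28.0 RPKM) and Csf1r (18.8 RPKM) came next. Adgre1 stood far lower, at 3.49 RPKM, and the lowest levels were those of Ccr2 at 0.958 RPKM and Ms4a7, a membrane protein gene of macrophages, at 0.836 RPKM. Lyz2 also varied most between libraries, with a coefficient of variation of 50.3%, and the Fc receptor gene Fcgr3 least, with 8.84%. The levels of Ms4a7 rested on 25 to 90 counts per library and those of Lcp1 on 5637 to 9953.

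Sequences upstream of the transcript starts are shown for C1qb and Fcer1g, whose fold changes in C362A against WT were positive, and for Trem2, whose fold change was negative. They are shown because PU.1 is itself a member and its DNA motif has the core GAGGAA. They are the 250 bases before the start in RefSeq's table on GRCm38.p6, written 5′ to 3′ on the strand of the gene. Capitals mark GAGGAA, which reads TTCCTC where it lies on the other strand. C1qb lies at chr4:136886201-136886450 on the minus strand, Trem2 at chr17:48346151-48346400 on the plus strand, and Fcer1g at chr1:171234350-171234599 on the minus strand.
C1qb: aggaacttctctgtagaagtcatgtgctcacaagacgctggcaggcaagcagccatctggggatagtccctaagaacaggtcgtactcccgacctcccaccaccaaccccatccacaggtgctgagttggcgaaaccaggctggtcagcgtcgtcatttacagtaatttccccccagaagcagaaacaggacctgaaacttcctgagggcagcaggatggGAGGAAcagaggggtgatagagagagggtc
Trem2: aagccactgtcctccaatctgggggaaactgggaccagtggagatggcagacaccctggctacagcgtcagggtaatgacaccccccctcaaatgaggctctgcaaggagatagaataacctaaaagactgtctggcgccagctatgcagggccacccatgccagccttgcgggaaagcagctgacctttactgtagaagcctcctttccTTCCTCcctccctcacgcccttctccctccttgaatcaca
Fcer1g: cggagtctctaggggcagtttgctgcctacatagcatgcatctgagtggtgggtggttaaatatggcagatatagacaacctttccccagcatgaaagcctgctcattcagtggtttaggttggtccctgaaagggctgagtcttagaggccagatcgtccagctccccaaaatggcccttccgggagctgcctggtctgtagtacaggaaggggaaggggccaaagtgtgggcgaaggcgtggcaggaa
The windows of C1qb and Trem2 each hold GAGGAA once, and that of Fcer1g does not hold these letters. The table covers 26 of the 32 members and has no window for Csf1r, Adgre1, Cd14, C1qa, Tyrobp and Spi1. Of the 26 covered, 14 (53.8%) have GAGGAA on either strand in at least 1 such window, against 25.9% of the 27025 genes in the table. A second motif searched in the same windows, the ETS-IRF composite (GGAA and GAAA with NN between them, either strand), was found for 1 of the 26 (3.85%), against 2.68% of genes. A match is a run of letters and does not show binding.

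The comparison of C362A with WT sets the catalytically inactive enzyme against the wildtype enzyme, with Mlkl knocked out in both. All C362A tissue is labelled inflamed and all WT tissue normal, so enzyme and inflamed state cannot be told apart. Adgre1 rose, 1.68-fold, and was the 1 member of 32 past the threshold. That threshold was an adjusted p under 0.05 in the quasi-likelihood test of edgeR, with p-values adjusted by the method of Benjamini and Hochberg over all genes. Of all 18370 genes tested, 0.0817% passed, all of them higher in C362A. The log2 fold change was positive for 25 of 32 members, against 51.4% of all genes, with a median of 0.19 over the members and 0.01 over all genes. At an unadjusted p under 0.05, 13 members lay higher in C362A (8.08% of all genes did) and 1, Trem2, lay lower (7.8% of all genes). The 13 were Adgre1, Spi1, Lyz2, Cybb, Fcer1g, Ptprc, Aif1, C1qb, Cd53, C1qa, Coro1a, Laptm5 and Cx3cr1. Adgre1 and Lyz2 were higher in all 5 C362A libraries than in any WT library, as were 0.86% of all genes. In bulk tissue, fewer cells of a type and less RNA per cell cannot be told apart, and the same holds for more of either.

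KO set against WT asks what loss of the gene does. Of the 32 members, 0 passed the test in edgeR, and 0 in DESeq2 and in limma-voom, against 0.0381% of all genes in edgeR. Fold changes were positive for 21 of 32 members (48.2% of all genes), with a median of 0.05. At an unadjusted p under 0.05, 3 members were higher in KO, Adgre1, Cybb and Ms4a7 (1.2% of all genes), and 0 were lower (1.23% of all genes). Of all genes, 0.0272% were called higher and 0.0109% lower. No member separated the 5 KO from the 5 WT libraries without overlap, as 0.37% of all genes did upward and 0.332% downward. The third contrast sets the inactive enzyme against its absence, and again tissue labelled inflamed against tissue labelled normal. In C362A against KO, 0 of 32 members passed in edgeR (0.0109% of all genes), in DESeq2 and in limma-voom, 23 had a positive fold change (53.2% of all genes) and the median was 0.10. There, Fcer1g, Spi1, Coro1a, Cd53, Laptm5 and Lyz2 had an unadjusted p under 0.05 and lay higher in C362A (6.49% of all genes), while Trem2 lay lower (7.41% of all genes). No member separated C362A from KO without overlap, as 1.11% of all genes did upward and 1.74% downward. C362A against WT and KO against WT share their WT libraries, and C362A against KO shares its libraries with both.

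**Figure D1:**
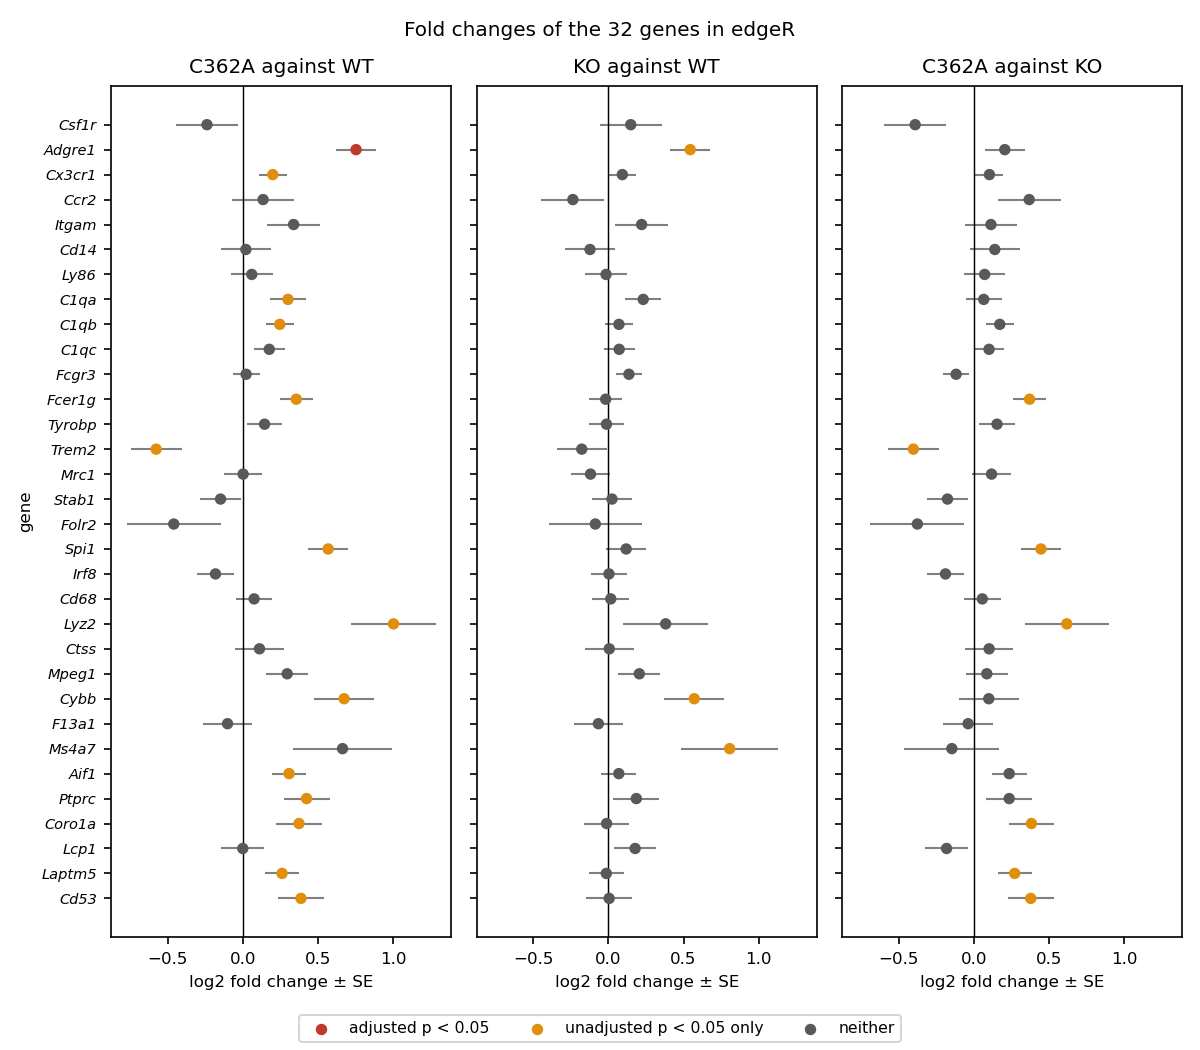
Log2 fold changes of the 32 genes (points) with standard errors (bars) in the 3 comparisons, from 1 edgeR fit over 15 libraries, where positive values mean higher in the genotype named first. Adgre1 in C362A against WT is the only red point (adjusted p under 0.05), and most points of that comparison lie right of 0, with Trem2 and Folr2 farthest left.

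The summed level of all 32 genes differed little between genotypes, at 911 ± 76.5 CPM in C362A, 911 ± 89.7 CPM in KO and 842 ± 115 CPM in WT (n = 5 each). The 3 ranges overlapped, and Lcp1 alone made up a large part of the sum. Without Lcp1 it was 695 ± 66.6 CPM in C362A, 665 ± 75.7 CPM in KO and 625 ± 79.9 CPM in WT, and without the 5 pan-leukocyte genes 604 ± 51.5 CPM in C362A, 592 ± 65.4 CPM in KO and 553 ± 75.8 CPM in WT. Csf1r and Irf8, the next highest in CPM, stay in both reduced sums. Their means were lowest in C362A, at 71.3 and 51.0 CPM, against 93.4 and 58.1 CPM in KO and 84.3 and 58.0 CPM in WT. Like Lcp1, both followed the enterocyte markers described below, and a sum without them was not computed.

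Receptors and adhesion molecules of the lineage formed the first group of 7 genes. Adgre1 (Entrez 13733, chr17:57358581-57483529, GRCm38) encodes F4/80, an adhesion receptor that marks mouse macrophages. Its levels in replicates 1 to 5 were 13.7, 12.8, 16.1, 15.5 and 13.6 CPM in C362A, 11.5, 12.3, 15.3, 8.51 and 14.4 CPM in KO and 8.76, 9.22, 7.59, 9.38 and 7.65 CPM in WT. Every C362A library lay above every WT library, and 4 of the 5 KO libraries did so too. Its log2 fold change was 0.75 (SE 0.13) for C362A against WT, with an adjusted p of 0.0361 in edgeR, and 0.54 (SE 0.13) for KO against WT, with an unadjusted p of 7.40e-04 and an adjusted p of 0.800. C362A against KO gave 0.21 (SE 0.13, adjusted p = 0.463), and C362A and KO overlapped. The Adgre1 call in C362A against WT sat near the threshold. It was kept in 4 of 15 fits that left out 1 library each, with log2 fold changes of 0.71 to 0.79 and adjusted p-values of 0.00443 to 0.1736, and in 12 of 28 fits in all. Without KO replicate 4, the lowest KO library, Adgre1 also passed in KO against WT (adjusted p = 0.0480).

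Csf1r, whose product most macrophages need for survival, had its lowest mean in C362A. It was at 71.3 ± 10.7 CPM in C362A, 93.4 ± 15.4 CPM in KO and 84.3 ± 31.1 CPM in WT (n = 5 each), and the WT libraries alone ran between 54.0 and 128 CPM. Its log2 fold change was −0.24 (SE 0.21) in C362A against WT and −0.39 (SE 0.21) in C362A against KO. Cx3cr1, the fractalkine receptor gene, was at 24.1 ± 3.31 CPM in C362A, 22.4 ± 1.55 CPM in KO and 21.1 ± 1.33 CPM in WT, with a log2 fold change of 0.20 (SE 0.09) in C362A against WT. Ccr2 had 5.32, 5.003, 7.96, 7.79 and 4.23 CPM in C362A, 4.83, 5.52, 5.46, 2.53 and 5.08 CPM in KO and 4.68, 5.81, 5.15, 5.20 and 6.77 CPM in WT. The groups overlapped, with C362A replicates 3 and 4 highest and KO replicate 4 lowest. Its log2 fold changes were 0.13 (SE 0.21) in C362A against WT, −0.24 (SE 0.21) in KO against WT and 0.37 (SE 0.21) in C362A against KO. Within run 1 the difference of Ccr2 between C362A and KO was −0.20 on the log2 scale, and within run 2 it was 0.72. Cx3cr1 differed between C362A and WT by 0.04 within run 1 and by 0.30 within run 2. Itgam, a chain of the complement receptor CR3, averaged 11.6 CPM in C362A, 10.7 CPM in KO and 9.21 CPM in WT. Cd14, the coreceptor for lipopolysaccharide, averaged 2.26 CPM in C362A, 2.05 CPM in KO and 2.23 CPM in WT, and Ly86, which encodes the MD-1 partner of a Toll-like receptor homolog, 6.84 CPM in C362A, 6.49 CPM in KO and 6.57 CPM in WT. No log2 fold change of these last 2 genes lay outside −0.12 to 0.14.

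**Figure D2:**
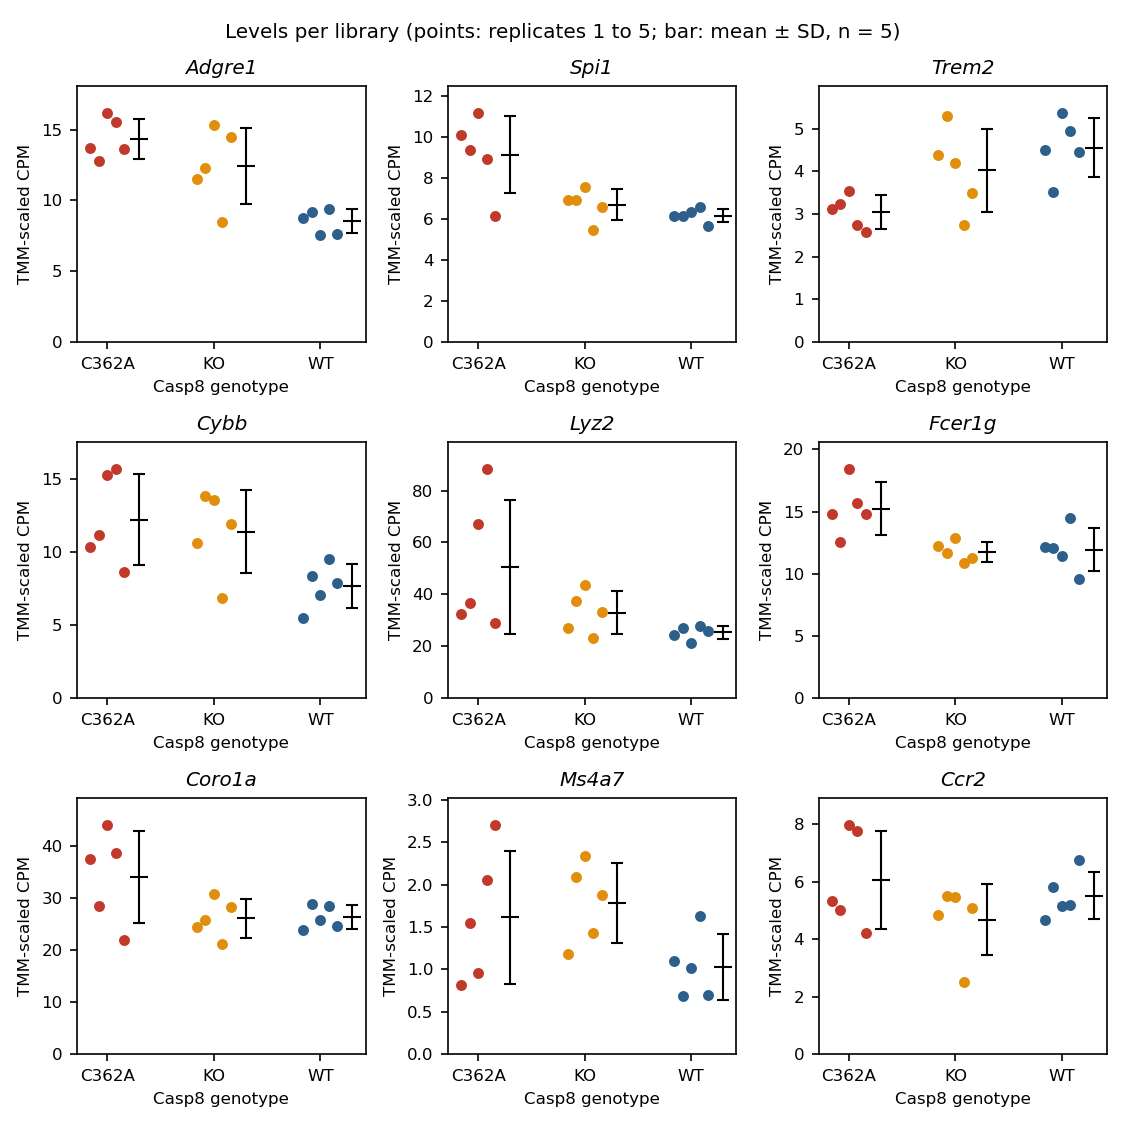
TMM-scaled CPM of 9 genes in each library (points, replicates 1 to 5 from left to right) with the mean and SD of each genotype (bars, n = 5), on linear axes from 0. Adgre1 and Lyz2 have all C362A points above all WT points, Trem2 has its C362A points low, and Lyz2 has C362A replicates 3 and 4 far above the other 13 libraries.

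The 3 chains of C1q, the recognition molecule of the classical complement pathway, lie side by side on chromosome 4 and had positive fold changes in all 3 comparisons. C1qb (Entrez 12260) had 45.0, 44.0, 46.7, 39.4 and 39.2 CPM in C362A, 34.4, 36.0, 44.7, 35.9 and 39.1 CPM in KO and 32.01, 36.4, 38.0, 42.5 and 32.1 CPM in WT. C362A libraries lay high and overlapped with WT and KO. The log2 fold change of C1qb in C362A against WT was 0.24 (SE 0.09, unadjusted p = 0.0170, adjusted p = 0.285 in edgeR). C1qa gave 0.30 (SE 0.12) and C1qc 0.17 (SE 0.10) in the same comparison. In KO against WT the 3 values were 0.23 for C1qa, 0.07 for C1qb and 0.07 for C1qc. None of the 3 passed in any comparison. Within run 1 the difference of C1qb between C362A and WT was 0.25 on the log2 scale, and within run 2 it was 0.24.

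Fc receptors and receptors that signal through ITAM adaptors differed in direction. Fcer1g (Entrez 14127) encodes the gamma chain through which Fc receptors signal. It had 14.8, 12.6, 18.4, 15.7 and 14.8 CPM in C362A, 12.2, 11.6, 12.9, 10.9 and 11.2 CPM in KO and 12.1, 12.04, 11.4, 14.5 and 9.62 CPM in WT. Of the C362A libraries, 4 lay above all KO libraries. Log2 fold changes of Fcer1g were 0.37 in C362A against KO (SE 0.11, unadjusted p = 0.00376, adjusted p = 0.317) and 0.35 in C362A against WT (SE 0.11, adjusted p = 0.285), both from edgeR. The ligand-binding chain Fcgr3, which needs that gamma chain to reach the surface, was nearly level at 11.1 ± 0.812 CPM in C362A, 12.01 ± 1.01 CPM in KO and 10.9 ± 0.988 CPM in WT. Tyrobp encodes the other adaptor, DAP12, and was at 17.6 ± 3.45 CPM in C362A, 15.8 ± 1.30 CPM in KO and 15.9 ± 1.91 CPM in WT.

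Trem2 (Entrez 83433), a lipid-sensing receptor that signals through DAP12, was the member with the most negative fold change in C362A. It had 3.11, 3.25, 3.55, 2.75 and 2.58 CPM in C362A, 4.38, 5.30, 4.19, 2.74 and 3.49 CPM in KO and 4.51, 3.51, 5.36, 4.94 and 4.45 CPM in WT. All 5 C362A libraries lay below 4 of the 5 WT libraries, with a small overlap at WT replicate 2. That gave a log2 fold change of −0.58 (SE 0.17, unadjusted p = 0.00313, adjusted p = 0.285 in edgeR), on 86 to 195 counts per library. KO stood between, at −0.18 (SE 0.17) against WT, and C362A against KO gave −0.40 (SE 0.17). The difference between C362A and WT was −0.76 within run 1 and −0.46 within run 2 on the log2 scale. Without C362A replicates 3 and 4 the fitted value was −0.61.

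Scavenger receptors of resident tissue macrophages had fold changes near or below 0 in C362A against WT. Mrc1, the mannose receptor, averaged 19.4 CPM in C362A, 17.8 CPM in KO and 19.4 CPM in WT, with a log2 fold change of 0.00 (SE 0.13) in C362A against WT. Stab1, which clears modified proteins, averaged 48.6 CPM in C362A, 54.8 CPM in KO and 53.9 CPM in WT (log2 fold change −0.15, SE 0.14). It overlaps Nt5dc2, which held 5575 counts per library on average against 1838 for Stab1, and the kit does not mark strand. Folr2, the folate receptor of fetal-type macrophages, had 0.965, 2.65, 1.05, 1.19 and 3.75 CPM in C362A, 2.44, 2.23, 2.86, 2.06 and 2.86 CPM in KO and 2.66, 2.58, 1.90, 2.84 and 3.25 CPM in WT. C362A replicates 1, 3 and 4 were the lowest of all 15 libraries and C362A replicate 5 was the highest. These fall along the runs. Within run 2 Folr2 averaged 1.07 CPM in C362A, 2.45 CPM in KO and 2.89 CPM in WT, and its log2 difference between C362A and WT was −1.44. Within run 1 it averaged 3.20 CPM in C362A, 2.55 CPM in KO and 2.28 CPM in WT, a difference of 0.49. Over all libraries the log2 fold change of Folr2 was −0.46 (SE 0.31, adjusted p = 0.444 in edgeR). Folr2 overlaps Gm10602, which held 219 counts per library against 82.8 for Folr2 and averaged 6.39 CPM in C362A, 6.11 CPM in KO and 6.25 CPM in WT.

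The 2 transcription factors of the list had fold changes of opposite sign in C362A. Spi1 (Entrez 20375) had 10.1, 9.36, 11.2, 8.92 and 6.14 CPM in C362A, 6.91, 6.91, 7.56, 5.49 and 6.61 CPM in KO and 6.13, 6.17, 6.34, 6.57 and 5.65 CPM in WT. In C362A, 4 of 5 libraries lay above every WT and every KO library, and replicate 5 lay among them. The log2 fold change of Spi1 was 0.57 in C362A against WT (SE 0.13, unadjusted p = 5.79e-04, adjusted p = 0.256) and 0.45 in C362A against KO (SE 0.13, unadjusted p = 0.00383, adjusted p = 0.317) in edgeR. It was 0.12 (SE 0.14) in KO against WT. Without C362A replicate 5 Spi1 passed in both C362A comparisons, with log2 fold changes of 0.68 against WT (adjusted p = 0.0138) and 0.56 against KO (adjusted p = 0.0383). In that fit 4.29% of all genes passed higher against WT and 1.78% against KO. Within run 1 Spi1 differed by 0.31 against WT and 0.20 against KO on the log2 scale, and within run 2 by 0.71 and 0.60. Irf8, which directs monocyte and dendritic cell development, was at 51.0 ± 5.53 CPM in C362A, 58.1 ± 4.95 CPM in KO and 58.0 ± 13.1 CPM in WT, with a log2 fold change of −0.18 (SE 0.12) in C362A against WT.

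Among the 8 genes for lysosomal, effector and cytoplasmic proteins, 7 had a positive fold change in C362A against WT and 3 had an unadjusted p under 0.05. Cybb (Entrez 13058) encodes the membrane subunit of the phagocyte oxidase. It had 10.3, 11.1, 15.3, 15.7 and 8.63 CPM in C362A, 10.6, 13.9, 13.6, 6.89 and 11.9 CPM in KO and 5.49, 8.36, 7.05, 9.51 and 7.91 CPM in WT. In C362A and in KO, 4 of 5 libraries lay above all WT libraries. For Cybb the log2 fold change was 0.67 (SE 0.20, adjusted p = 0.285 in edgeR) in C362A against WT and 0.57 (SE 0.20, unadjusted p = 0.0113) in KO against WT, and neither passed. Within run 1 the KO difference was 1.04 on the log2 scale, and within run 2 it was 0.27.

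Lyz2, described here for its spread after its values were seen, had the highest fold change of the 32 in C362A against WT. It had 32.4, 36.5, 67.1, 88.1 and 28.9 CPM in C362A, 27.1, 37.5, 43.7, 23.1 and 33.2 CPM in KO and 24.2, 27.1, 21.4, 27.8 and 26.0 CPM in WT. C362A replicates 3 and 4 stood apart from all other libraries, while the other 3 C362A libraries lay within the range of KO. Fitted over all libraries, the log2 fold change was 1.001 (SE 0.28, unadjusted p = 0.00325, adjusted p = 0.285 in edgeR). Without those 2 libraries it was 0.37 against WT and −0.01 against KO. Both belong to run 2, where C362A differed by 1.21 from WT and by 0.998 from KO on the log2 scale, while within run 1 Lyz2 differed by 0.52 from WT and by −0.11 from KO. The same 2 libraries held the highest sums of neutrophil markers (120 and 133 CPM) and of mast cell and basophil markers (53.8 and 53.7 CPM), whose part in the level of Lyz2 was not tested. Lyz1, a close copy, was at 7.496 CPM in C362A, 6.27 CPM in KO and 6.53 CPM in WT, and the counts are of uniquely aligned reads, so reads that match both genes are missing from both.

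Ms4a7 (Entrez 109225) had 0.809, 1.54, 0.962, 2.06 and 2.70 CPM in C362A, 1.18, 2.09, 2.33, 1.43 and 1.87 CPM in KO and 1.10, 0.686, 1.01, 1.63 and 0.693 CPM in WT. Its KO libraries lay high and overlapped with WT, and C362A spanned most of the range. Ms4a7 had a log2 fold change of 0.81 in KO against WT (SE 0.32, unadjusted p = 0.0235) and 0.66 in C362A against WT (SE 0.33, unadjusted p = 0.0583). Aif1, the actin-binding protein IBA1, averaged 9.40 CPM in C362A, 7.98 CPM in KO and 7.61 CPM in WT, with a log2 fold change of 0.31 (SE 0.12) in C362A against WT. Mpeg1, a pore-forming protein of phagosomes, averaged 36.2 CPM in C362A, 34.0 CPM in KO and 29.5 CPM in WT (0.29, SE 0.14). The lysosomal genes Cd68 (7.76 CPM in C362A, 7.45 CPM in KO and 7.37 CPM in WT) and Ctss (41.2 CPM in C362A, 38.4 CPM in KO and 38.3 CPM in WT) and the clotting factor gene F13a1 (18.3 CPM in C362A, 18.8 CPM in KO and 19.7 CPM in WT) had log2 fold changes between −0.10 and 0.11 in C362A against WT.

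Of the 5 pan-leukocyte genes, 4 had positive fold changes in C362A against WT, and Lcp1 did not. Coro1a (Entrez 12721), an actin regulator of blood cells, had 37.6, 28.4, 44.0, 38.7 and 21.9 CPM in C362A, 24.5, 25.8, 30.9, 21.1 and 28.3 CPM in KO and 23.8, 29.0, 25.8, 28.6 and 24.6 CPM in WT. C362A replicates 1, 3 and 4 lay above all other libraries, and replicates 2 and 5 lay within the range of KO. Its log2 fold change was 0.38 (SE 0.15, unadjusted p = 0.0216, adjusted p = 0.317 in edgeR) in C362A against KO and 0.37 (SE 0.15) against WT. The 3 high libraries are the C362A libraries of run 2. Within run 2 Coro1a averaged 40.1 CPM in C362A, 25.5 CPM in KO and 27.4 CPM in WT, and within run 1 it averaged 25.1 CPM in C362A, 27.1 CPM in KO and 24.8 CPM in WT. Ptprc, the CD45 phosphatase gene, was at 14.8 ± 3.61 CPM in C362A, 12.5 ± 2.12 CPM in KO and 11.0 ± 1.21 CPM in WT, with a log2 fold change of 0.42 (SE 0.15) in C362A against WT. Laptm5 (0.26, SE 0.11) and Cd53 (0.39, SE 0.15) had positive values in the same comparison too. Within run 1 that difference was 0.03 for Laptm5 and 0.18 for Cd53, and within run 2 it was 0.40 for Laptm5 and 0.49 for Cd53.

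Lcp1 (Entrez 18826) was level between C362A and WT. It had 175, 186, 212, 211 and 298 CPM in C362A, 215, 267, 258, 242 and 245 CPM in KO and 182, 198, 278, 246 and 179.9 CPM in WT. The 3 genotypes overlapped over most of their range, and C362A replicate 5 was highest. Its log2 fold changes were 0.00 (SE 0.14) in C362A against WT, 0.18 (SE 0.14) in KO against WT and −0.18 (SE 0.14) in C362A against KO.

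**Figure D3:**
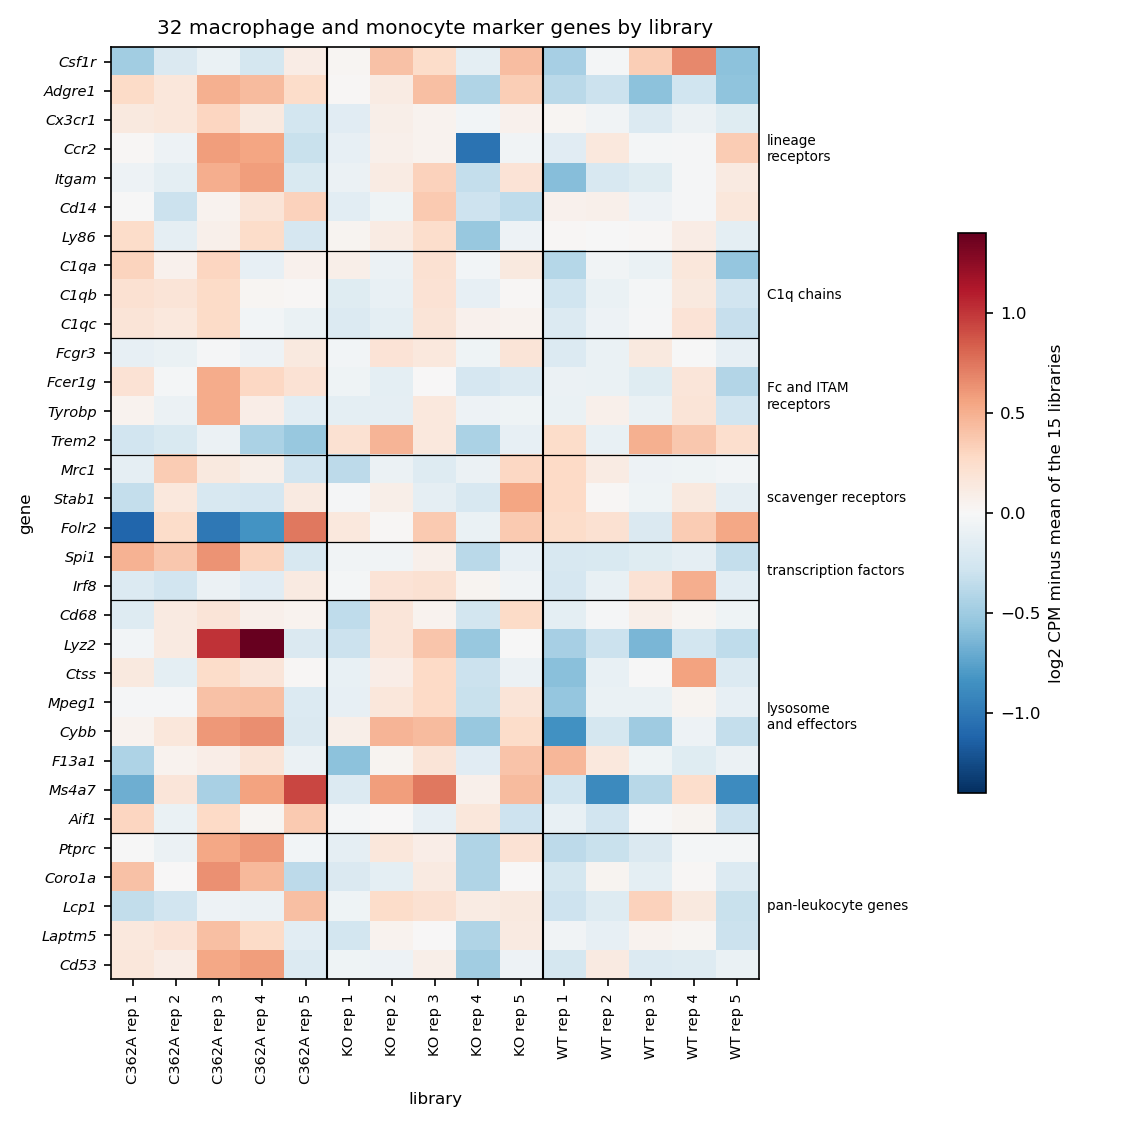
Log2 CPM of the 32 genes (rows, by role) in 15 libraries (columns), each minus the gene's mean over all libraries, with red above and blue below that mean. C362A replicates 3 and 4 and KO replicate 3 are red over most rows. KO replicates 1 and 4 and WT replicates 1, 2, 3 and 5 are blue over most rows, and Folr2 is dark blue in C362A replicates 1, 3 and 4.

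Within a genotype, whole libraries stood high or low over most members. C362A replicate 3 was above the 15-library mean for 24 of 32 members, with a median deviation of 0.28 on the log2 scale, and held the highest value of 10 members. C362A replicate 4 was above for 23 members and held the highest value of 6. In KO, replicate 3 was above for 29 members and replicate 4 below for 27, with a median deviation of −0.25. KO replicate 1 was below for 25. In WT, replicate 5 was below for 27 members, replicates 1 and 3 for 24 each and replicate 2 for 23, while replicate 4 was above for 19. With C362A replicates 3 and 4 left out, a fit chosen after the values were seen, 21 of 32 members had a positive fold change against WT, the median was 0.05 and 0 passed. Without C362A replicate 5, 7 members passed: Adgre1, Spi1, Lyz2, Cybb, Coro1a, Cd53 and Cx3cr1, all higher in C362A. In the same fit 4.29% of all genes passed higher in C362A, against the 0.0817% with all libraries.

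The counts of positive fold changes differed between the 2 runs of sample IDs in the comparisons with KO, on 2 or 3 libraries of each genotype per run. Whether the runs themselves or single libraries within them differed was not tested, and C362A replicates 3 and 4 and KO replicate 4 all belong to run 2. In C362A against WT, 24 of 32 members had a positive fold change within run 1 (50% of all genes), with a median of 0.12, and 24 of 32 within run 2 (51.9% of all genes), with a median of 0.24. In KO against WT, 28 of 32 were positive within run 1 (51.3% of all genes, median over members 0.15) and 14 of 32 within run 2 (51.1% of all genes, median −0.02). In C362A against KO, 10 of 32 were positive within run 1 (50.8% of all genes, median −0.10) and 24 of 32 within run 2 (51.3% of all genes, median 0.23). Adgre1 differed between C362A and WT by 0.69 within run 1 and by 0.79 within run 2, and between KO and WT by 0.71 within run 1 and by 0.43 within run 2. A fit with the run as a term gave medians of 0.19, 0.04 and 0.10 for C362A against WT, KO against WT and C362A against KO.

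Csf1r, Irf8 and Lcp1 followed another feature of the libraries, the summed CPM of 15 enterocyte markers, a relation looked for after the values were seen. That sum averaged 12322 ± 3556 CPM in C362A, 20628 ± 1378 CPM in KO and 20069.5 ± 9433 CPM in WT, ran from 11429 to 34463 CPM over the WT libraries alone, and stands for the absorptive cells of the epithelium. Over 15 libraries on the log2 scale, Csf1r followed it with Pearson's r = 0.89 and Spearman's rho = 0.85, Irf8 with r = 0.87 and rho = 0.84, and Lcp1 with r = 0.74 and rho = 0.75. Of 32 such relations computed, these 3 passed by both measures, with adjusted permutation p-values for Pearson's r of 0.00048 for Csf1r, 0.00048 for Irf8 and 0.0205 for Lcp1 (100000 resamples, smallest p possible 1e-05), and for Spearman's rho of 0.00352, 0.00464 and 0.0197 in that order. Fcgr3 passed by Spearman's rho (0.71, adjusted permutation p = 0.0315) and not by Pearson's r (0.60, adjusted permutation p = 0.148), with r = 0.95 within run 1 and 0.48 within run 2. Of the negative relations 0 passed by Pearson's r, and Spi1 had the most negative r at −0.54 (unadjusted permutation p = 0.037). Leaving out the 2 libraries farthest from the median gave r = 0.84 for Csf1r, 0.82 for Irf8 and 0.74 for Lcp1. Within run 1 (n = 6) r was 0.96, 0.92 and 0.88 for the 3 genes in that order, and within run 2 (n = 9) it was 0.89, 0.87 and 0.75. With the genotype means subtracted it was 0.91, 0.87 and 0.80. Over all libraries Ptprc (r = −0.22), Adgre1 (r = −0.26) and C1qb (r = −0.09) did not pass. With the genotype means subtracted, other members also had positive values. These were 0.65 for Fcgr3, 0.64 for Ctss, 0.63 for Ms4a7, 0.50 for C1qa and 0.44 for C1qb. Ptprc had 0.11 and Adgre1 0.14 there, and the most negative value was −0.38 for Cx3cr1. A positive relation within genotypes was thus not particular to the 3 genes that passed. Both axes come from the same libraries and share their scaling, and which cells carried the transcripts was not tested.

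**Figure D4:**
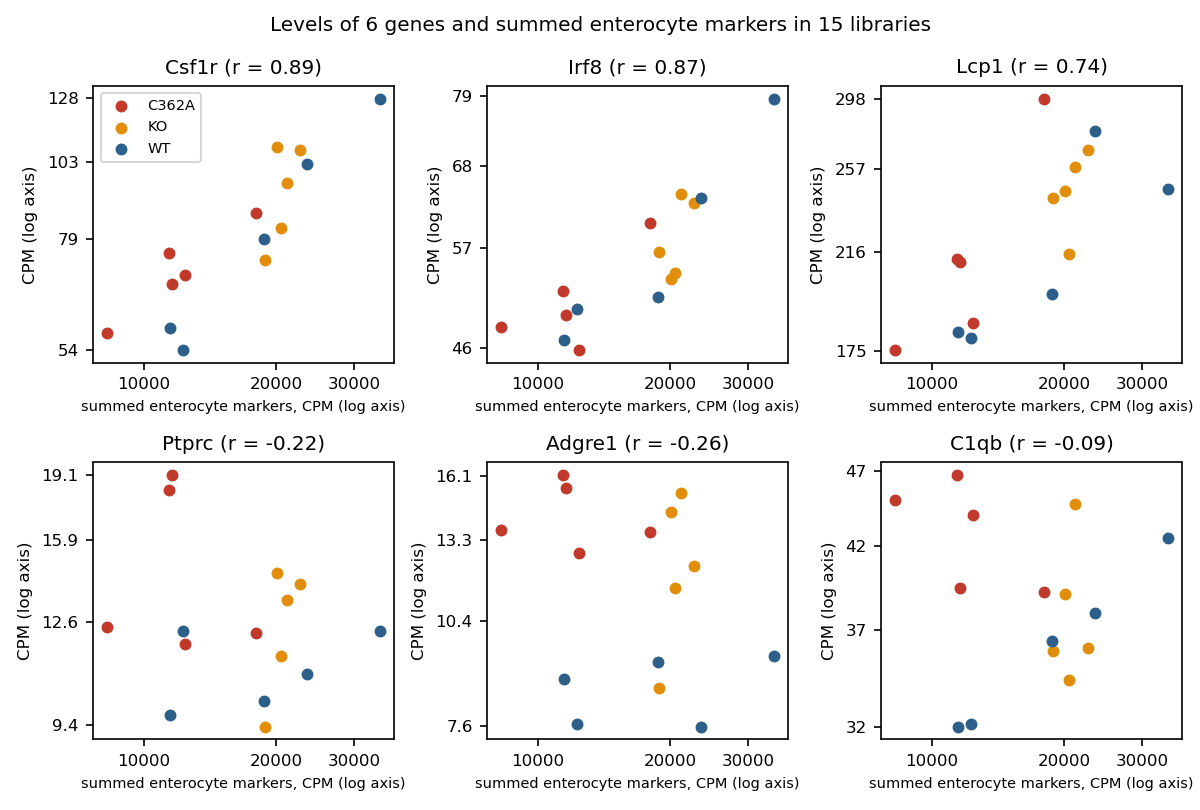
CPM of 6 genes against the summed CPM of 15 enterocyte markers in the 15 libraries (points, by genotype), both on log axes. Csf1r, Irf8 and Lcp1 rise with the enterocyte sum across genotypes (r = 0.89, 0.87 and 0.74), and the relations of Ptprc, Adgre1 and C1qb did not pass.

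Several macrophage genes outside the 32 passed the test. Of 30 tested in a further list of macrophage identity genes, 4 rose in C362A against WT (0.0817% of all genes). In KO against WT 2 rose (0.0272% of all genes), and 0 fell in either. At an unadjusted p under 0.05, 8 lay higher (8.08% of all genes) and 5 lower (7.8% of all genes) in C362A against WT, and 9 lay higher (1.2%) and 1 lower (1.23%) in KO against WT. Slamf8, a receptor of activated macrophages, rose in both, with levels of 2.05 CPM in C362A, 1.37 CPM in KO and 0.451 CPM in WT and log2 fold changes of 2.18 (SE 0.23, adjusted p = 2.95e-04) in C362A and 1.61 (SE 0.23, adjusted p = 0.0144) in KO by edgeR. Clec4n, the C-type lectin Dectin-2, also rose in both (1.06 and 0.84). The lectin gene Mgl2 rose in C362A (1.55 ± 0.0980 CPM, against 0.720 ± 0.107 CPM in KO and 0.423 ± 0.111 CPM in WT). So did Spic, a transcription factor of iron-recycling macrophages (1.21 ± 0.254 CPM in C362A, 0.689 ± 0.169 CPM in KO and 0.297 ± 0.0910 CPM in WT). Both were also higher in KO against WT by edgeR without passing, at 0.76 for Mgl2 (unadjusted p = 0.00267) and 1.20 for Spic (unadjusted p = 2.95e-04). For Spic every KO library lay above every WT library, as for 0.37% of all genes. The 5 genes that lay lower in C362A, without passing and named here after their values were seen, were the haemoglobin scavenger receptor gene Cd163 (0.472 CPM in C362A, 0.624 CPM in KO and 1.16 CPM in WT; log2 fold change −1.28, SE 0.38, adjusted p = 0.285 in edgeR), the prostaglandin D synthase gene Hpgds (−0.57), the hyaluronan receptor gene Lyve1 (−0.48), the uptake receptor gene Mertk (−0.44) and its ligand gene Gas6 (−0.29). Cd163 rested on 6 to 60 counts per library. The list summed to 1716 ± 149 CPM in C362A, 2016 ± 50.6 CPM in KO and 1931 ± 358 CPM in WT. Over these 30 genes the median log2 fold change was 0.20 in C362A against WT and 0.10 in KO against WT. Mgl2, Slamf8 and Spic averaged under 3 CPM in every genotype, and earlier results of these data were known when the list was drawn up.

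Of 11 chemokine and chemoattractant genes tested, 2 rose in C362A against WT (0.0817% of all genes) and 1 in KO against WT (0.0272% of all genes). At an unadjusted p under 0.05, 5 lay higher (8.08% of all genes) and 1 lower (7.8% of all genes) in C362A against WT. This list too was drawn up with earlier results of these data known, so its calls are not separate support. Cxcl10 was at 4.29 ± 0.751 CPM in C362A, 2.0004 ± 0.550 CPM in KO and 0.734 ± 0.125 CPM in WT, with log2 fold changes of 2.54 (adjusted p = 7.96e-06) in C362A and 1.45 (adjusted p = 0.0143) in KO against WT by edgeR. Ccl12, a ligand of Ccr2, rose to 1.13 CPM in C362A, against 0.357 CPM in WT (log2 fold change 1.65, SE 0.26). In KO against WT it had 1.36 (SE 0.26, adjusted p = 0.157 in edgeR), with every KO library above every WT library. C362A against KO gave 0.29 (SE 0.24) for Ccl12. In the CSF1 receptor axis 0 of 16 genes passed in any of the 3 comparisons by edgeR, and in C362A against WT 4 had an unadjusted p under 0.05 with a positive and 1 with a negative fold change. Csf2rb, the shared chain of the GM-CSF receptor, came closest, at 6.25 CPM in C362A, against 3.68 CPM in WT (0.76, adjusted p = 0.138). Csf1, the ligand of Csf1r, averaged 35.6 CPM in C362A, against 30.1 CPM in WT (0.24, SE 0.07).

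Further partners of the members gave no call by edgeR in any comparison. Of 14 myeloid transcription factors 0 passed, and in C362A against WT 2 had an unadjusted p under 0.05 with a positive and 1 with a negative fold change. The same counts were 0, 2 and 2 for 14 partners in ITAM and Fc receptor signalling, 0, 2 and 0 for 12 complement genes outside C1q, and 0, 3 and 0 for 5 subunits of the phagocyte oxidase outside Cybb. At that unadjusted p, 8.08% of all genes lay higher and 7.8% lower. The values of smallest p in C362A against WT were, on the log2 scale, 0.44 for Zeb2 and 0.57 for Ikzf1, both transcription factors. Trem1, an activating receptor that uses DAP12, had −0.56 and the kinase gene Fgr 0.33. The C1 inhibitor gene Serping1 had 0.34 and the properdin gene Cfp 0.30. The oxidase subunits Ncf4 (0.80) and Rac2 (0.39) were positive like Cybb.

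Markers of other cells also differed between libraries, and their part in the results was not tested. Neutrophil markers summed to 84.2 ± 39.2 CPM in C362A, 69.5 ± 24.4 CPM in KO and 41.9 ± 16.45 CPM in WT, with ranges of 52.4 to 133, 39.2 to 103 and 22.9 to 59.9 CPM and the 2 highest libraries in C362A replicates 3 and 4. All 14 tested had a positive fold change in C362A against WT (51.4% of all genes), with a median of 1.001. All 14 were also positive in KO against WT (48.2% of all genes), with a median of 0.57. Mmp9, a gelatinase, was the 1 of the 14 that passed, in C362A against WT (0.0817% of all genes rose) and KO against WT (0.0272%). It was at 37.0 CPM in C362A, 31.6 CPM in KO and 15.8 CPM in WT, a large part of each neutrophil sum. In C362A against WT, 3 of the 14 had an unadjusted p under 0.05, all higher (8.08% of all genes). Ly6g was the 1 of 15 under the filter, and the list was drawn up with earlier results of these data known. Mast cell and basophil markers summed to 32.2 ± 19.7 CPM in C362A, 19.99 ± 10.1 CPM in KO and 16.7 ± 3.74 CPM in WT, with ranges of 16.8 to 53.8, 9.91 to 34.8 and 12.5 to 20.5 CPM and the same 2 C362A libraries highest. All 7 tested of 10 were positive in C362A against WT, led by Mcpt4 (1.72) and Mcpt8 (1.48). Of these 0 passed, and 4 had an unadjusted p under 0.05, all higher (8.08% of all genes).

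**Figure D5:**
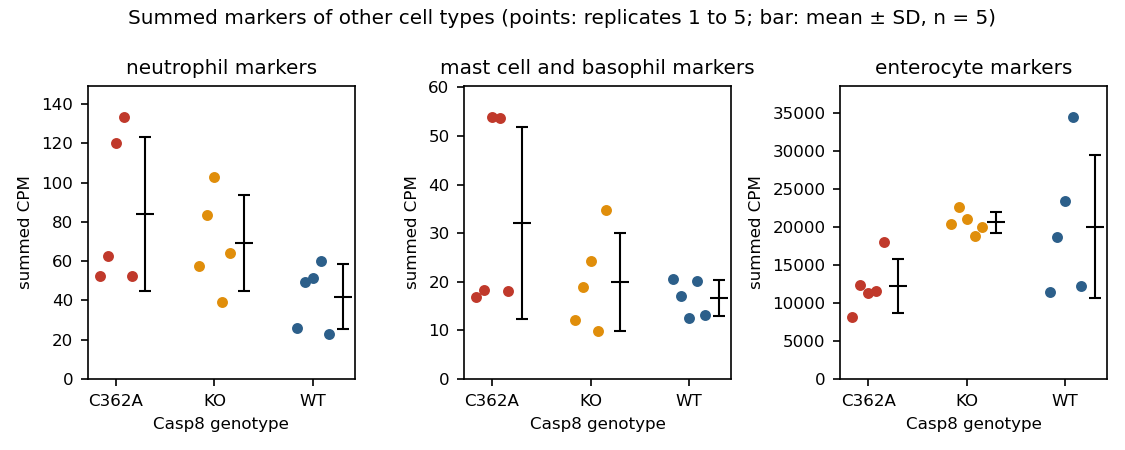
Summed CPM of neutrophil, mast cell and basophil, and enterocyte markers in each library (points, replicates 1 to 5 from left to right) with the mean and SD of each genotype (bars, n = 5). C362A replicates 3 and 4 lie highest for the first 2 lists, and enterocyte markers are spread most widely over WT.

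The remaining lists marked other blood cells, the epithelium and the wall. Lymphoid markers summed to 43.5 ± 6.48 CPM in C362A, 50.5 ± 8.44 CPM in KO and 49.0 ± 8.57 CPM in WT. Of 8 tested, 1 passed in C362A against WT (0.0817% of all genes). This was Il2rg, which rose (0.75, SE 0.13, adjusted p = 0.0201 in edgeR) and also serves other leukocytes. At an unadjusted p under 0.05, 2 of the 8 lay higher and 1 lower. Dendritic cell markers summed to 91.3 ± 7.42 CPM in C362A, 82.0 ± 17.1 CPM in KO and 85.7 ± 21.5 CPM in WT, and 0 of 10 passed, with 1 negative at an unadjusted p under 0.05 (Siglech −0.70, Ccr9 0.36). Erythroid markers summed to 2445 ± 1176 CPM in C362A, 3275 ± 1251 CPM in KO and 2887 ± 1450.2 CPM in WT, and 0 of 9 passed, with 0 at an unadjusted p under 0.05 (Epb42 0.58, Hbb-y 0.91). Of 15 enterocyte markers, 14 had a negative fold change in C362A against WT, with a median of −0.57, and 0 passed, with 11 negative at an unadjusted p under 0.05 (Rbp2 −1.01, Mep1a −0.38). For epithelial, fibroblast, smooth muscle and endothelial markers 0 passed in any comparison, with medians of −0.06, 0.24, 0.23 and 0.19 in C362A against WT. At an unadjusted p under 0.05 there, 1 of 8 epithelial markers lay lower, and 6 of 10 fibroblast, 5 of 8 smooth muscle and 5 of 10 endothelial markers lay higher, with 1 endothelial marker, Lyve1, lower. Of all genes, 8.08% lay higher and 7.8% lower at that p. The smallest p among them belonged to Cdx1 (−0.21) and Krt18 (−0.14), Col6a1 (0.24) and Foxf1 (0.25), Cald1 (0.42) and Lmod1 (0.23), and Pecam1 (0.27) and Stab2 (0.87).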

How the data were processed

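Total RNA was made into unstranded polyA libraries from 0.5 ug and sequenced as single-end reads of 50 bp, per the labels' protocols. Reads were aligned with GSNAP to GRCm38, per the submitters' processing notes. Per the file headers, the authors deposited 2 values per gene: a count of reads aligned uniquely to the gene model, and an RPKM to which they applied a size factor for the library. Over 15402 genes the RPKM followed from the counts with a library factor and a gene length (largest residual 1e-14 on the log2 scale). RPKM was used only to order levels between genes. RefSeq on GRCm38.p6 named 31049 of 36528 IDs by Entrez ID, and the 5479 others stayed in the tests without a name. Libraries of the same genotype differed beyond sampling noise in each pairing (chi-square per gene 10.69 to 138.21), and each was counted as 1 sample.

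Counts were tested with edgeR 4.0.16 (R 4.3.3, quasi-likelihood, TMM, minimum count 10 and minimum total 15, robust), with 15 libraries in 1 fit. The biological coefficient of variation was 0.174, and p-values were adjusted by Benjamini-Hochberg over 18370 genes, with calls under 0.05. The fit was tested on simulated data. Log2 values of the relation with enterocyte markers used CPM plus 0.1. Alternatives were other scalings and filters, DESeq2 1.42.0, limma-voom (limma 3.58.1), fits by run of sample IDs, a covariate for Y-linked genes, and libraries left out. The members, the 19 other gene lists (226 of 227 entries found) and the tests were chosen with earlier results of these data known. Values by library are given for called members, for the 3 of smallest p in each comparison, and for the 2 highest and 2 lowest in RPKM. Lyz2, Folr2, Csf1r and Irf8 were singled out after their values were seen.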

Additional observations from a re-analysis of the deposited data

Results flagged for a closer look

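Over 111 groups of 5 libraries checked (the members, their sum and 4 sums of other markers in each genotype), 3 held a library whose gap to its nearest neighbour exceeded 0.71 of the group's range, a limit that chance passes in about 1 group in 20. Ccr2 was at 2.53 CPM in KO replicate 4 and between 4.83 and 5.52 CPM in the other 4 KO libraries. Tyrobp was at 18.03 CPM in KO replicate 3 and between 14.9 and 15.6 CPM in the other 4. The summed erythroid markers were at 5424 CPM in WT replicate 2 and between 2028 and 2771 CPM in the other 4 WT libraries.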

How the results depend on the processing

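The number of members called in C362A against WT, 1 in the fit reported, was 0 with a filter of 5 CPM in 5 libraries, with limma-voom, within run 1, with a Y-linked covariate, with a threshold of 0.01 and, chosen after seeing the data, without C362A replicates 3 and 4. It was 2 in DESeq2 (Adgre1 and Spi1) and 4 within run 2 (Adgre1, Spi1 and Coro1a higher, Folr2 lower). With each library left out in turn it ran from 0 to 7, with 7 without C362A replicate 5. All genes called, 15 in the fit reported, numbered 1 with that filter, 54 in DESeq2, 0 within run 1, 2478 within run 2, 7 with the Y-linked covariate, 7 at a threshold of 0.01 and 7 to 1807 with each library left out, again highest without C362A replicate 5.

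In KO against WT, members called stayed at 0 except for 1 (Adgre1) without KO replicate 4, a range of 0 to 1. All genes called there, 7 in the fit reported, numbered 2 with the filter, 13 in DESeq2, 1 with only the compared groups, 1 within run 1, 1 within run 2, 3 with the Y-linked covariate, 1 at 0.01 and 1 to 8 with each library left out. In C362A against KO, members called were 0 in the fit reported, 2 within run 2 (Coro1a higher, Folr2 lower) and 0 to 2 with each library left out. All genes called there, 2 in the fit reported, numbered 27 in DESeq2, 4 with only the compared groups, 1 within run 1, 372 within run 2 and 2 to 805 with each library left out. The 372 within run 2 were of 18343 genes tested, 122 higher and 250 lower. Coro1a in C362A against KO turned from 0.38 to −0.11 on the log2 scale within run 1. The cause of these shifts was not tested, and a run holds fewer libraries than the full fit.

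The summed level of the members, 0.12, 0.12 and 0.00 on the log2 scale for C362A against WT, KO against WT and C362A against KO, moved by less than the spread between libraries in every alternative run. The relation of Lcp1 with enterocyte markers no longer passed with library totals (r = 0.69) and without C362A replicate 1 (r = 0.68), and that of Fcgr3 passed without WT replicate 4 (r = 0.72). Other scalings moved the median of all genes by at most 0.04. No paired analysis was possible because the labels give no replicate numbers, so equal numbers across genotypes pair nothing. Depth limits the members with fewest reads, Ms4a7, Folr2, Cd14, Ccr2 and Trem2.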
